A study of Homo sapiens with 10 samples.

Results

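The pannexins are a family of 3 channel proteins, PANX1, PANX2 and PANX3, and their transcripts are described here in the established human lung adenocarcinoma cell line NCI-H441 after exposure to the compound CLEFMA. Every probe that the platform annotation gives the symbol PANX1, PANX2 or PANX3 was taken. This gave 3 probes, 1 for each gene, of the 48803 on the array. All 3 passed the filter on dim probes, as 44606 of the 48803 did, so passing it says little about expression. The family was chosen by the difference between treated and control cells seen earlier in these same arrays, so the members' differences are given as a description and without a p-value.

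The groups were compared on Illumina HumanWG-6 bead arrays, 5 arrays each: cells given 1 µM CLEFMA dissolved in DMSO (treated), and cells given the same volume of DMSO alone (control), both for 12 h at 0.1% DMSO. The labels name no genetic change and no further agent, and the medium of both groups held fetal bovine serum and gentamicin. The labels name 4 wells per group in one place and 3 biological replicates in another, and nothing states that each array is a separate culture, so the errors below measure only the spread between these arrays, which may be technical. The total RNA came from whole wells, where a change in the share of cells and a change in RNA per cell cannot be told apart.

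On each array 49.1% to 53.7% of probes were above background, taken as a deposited log10 value over 0.2. Control 3 correlated least with the rest (mean r of 0.978, where the 9 other arrays had 0.986 to 0.990). For genes named by a fixed rule, differences that turn their sign without control 3 are given without it too, with those of PANX1 and PANX3. Genes marked as chosen after their values were seen, and the list medians, are given only with control 3 included. Of 12 markers of this line, 10 were above background on all arrays, among them EPCAM, the keratins KRT8, KRT18 and KRT19, and NKX2-1, the lung lineage transcription factor; SFTPC, a surfactant protein gene, was above background on 0. Of markers of other cell types, 3 of 3 measured neuron markers, 2 of 4 leukocyte markers and 3 of 6 fibroblast markers were also above background on all arrays. TUBB3, a neuron marker, was at 10.2 in control cells. In each of these other lists 0 genes passed the limma test over all genes in either direction, where 0.265% of all genes were called higher and 0.0338% lower.

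Pannexins are membrane proteins related to the innexins, the gap junction proteins of invertebrates. PANX1 forms large-pore channels in the plasma membrane that let ATP and other small molecules out of the cell. It opens during apoptosis when its C-terminal tail is removed, and the released nucleotides act on purinergic receptors of nearby cells. PANX2 is best known from the brain, has a much longer C-terminal tail and lies partly on membranes inside the cell. PANX3 is best known from cartilage, bone and skin.

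PANX2 was the pannexin that differed between the groups. Levels are log2 of the deposited signal plus 3 units, quantile normalized between arrays. The deposited values were read as log10, a base inferred from the values, and the fold changes rest on that reading. A log2 difference on this scale understates the change of dim probes. On the control arrays numbered 1 to 5 the PANX2 probe (ILMN_1694810) was at 4.76, 4.70, 4.81, 4.81 and 4.57, and on the treated arrays it was at 6.41, 6.17, 6.22, 6.18 and 6.20. Each treated array was above each control array, and the lowest treated value lay 1.35 above the highest control value.

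The PANX2 mean was 4.73 ± 0.10 in control cells and 6.23 ± 0.10 in treated cells (SD, n = 5 each). The difference was 1.51 ± 0.09 log2 units (SE), or 2.84-fold with a 95% interval of 2.49 to 3.23. With the deposited values turned to linear units and nothing added, the probe averaged 24.0 ± 2.92 in control cells and 71.5 ± 5.95 in treated cells (SD, n = 5 each). The ratio was 2.97. PANX2 ranked 13 of the 17752 genes tested by the size of its rise.

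PANX1 was above background on all 10 arrays and differed little between the groups. Its probe (ILMN_1697817) was at 5.42, 5.29, 5.75, 5.49 and 5.35 on the control arrays and at 5.38, 5.20, 5.17, 5.37 and 5.35 on the treated arrays. The groups overlapped, and the highest value of all was that of control 3. The mean was 5.46 ± 0.18 in control cells and 5.29 ± 0.10 in treated cells (SD, n = 5 each). The difference was −0.17 ± 0.10 log2 units (SE), with a 95% interval of −0.39 to 0.06, and without control 3 it was −0.09. The interval leaves room for a fall to 0.764 of the control level and for a rise to 1.04 times that level.

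PANX3 was measured near background. Its probe (ILMN_1811316) was at 2.69, 2.51, 1.68, 2.42 and 2.54 on the control arrays and at 2.45, 2.40, 2.37, 3.05 and 2.50 on the treated arrays. It was above background on 4 of 5 control and 5 of 5 treated arrays, the exception being control 3. The groups overlapped, with the lowest value on control 3 and the highest on treated 4. The difference was 0.18 ± 0.19 log2 units (SE, n = 5 each), with a 95% interval of −0.23 to 0.60, and without control 3 it was 0.01. A direction for PANX3 cannot be read from these arrays.

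**Figure D1:**
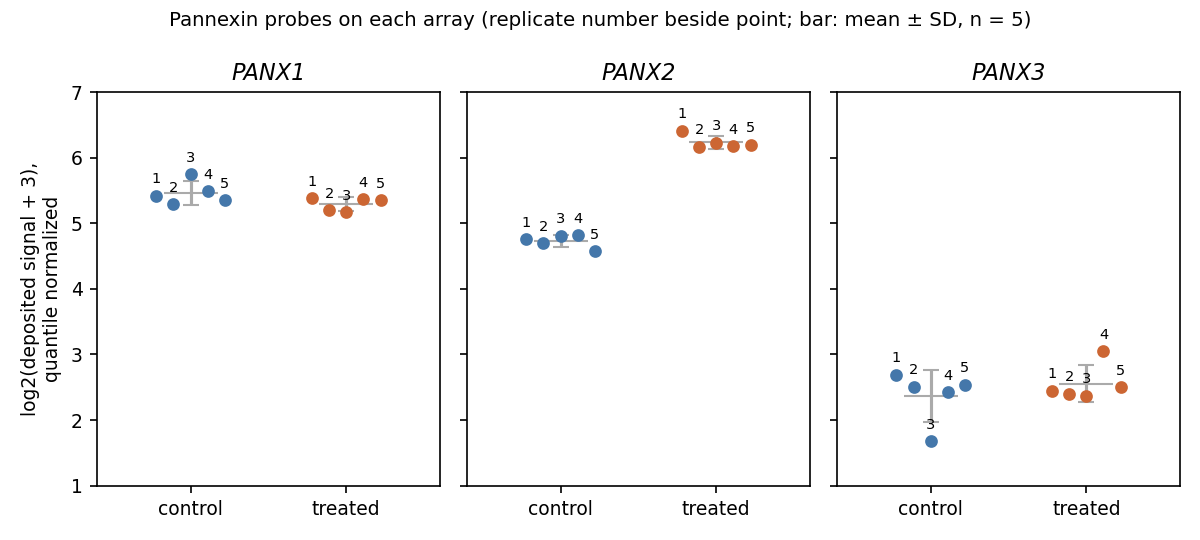
Level of each pannexin probe on each array, as log2 of the deposited signal plus 3 after quantile normalization; points are arrays with their replicate number, and bars are the mean ± SD of 5 arrays. For PANX2 the treated arrays lie at 6.17 to 6.41 and the controls at 4.57 to 4.81, while for PANX1 and PANX3 the groups overlap.

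PANX1 and PANX3 both lie on the long arm of chromosome 11, and PANX2 lies on chromosome 22. For PANX2 no stretch around the start site was in the set used here. The stretches around the annotated start sites of the members on chromosome 11 are shown. They set a member measured on every array, PANX1, beside one near background, PANX3. Whether these stretches bear on the measured levels was not tested. Each runs from 250 bases before to 50 bases after the start, from RefSeq in build GRCh38.p14, on the plus strand, at chr11:94128591-94128890 for PANX1 and at chr11:124611178-124611477 for PANX3. Capitals mark a match to TGACNNNGC, the core of the antioxidant response element that NRF2 binds.
PANX1: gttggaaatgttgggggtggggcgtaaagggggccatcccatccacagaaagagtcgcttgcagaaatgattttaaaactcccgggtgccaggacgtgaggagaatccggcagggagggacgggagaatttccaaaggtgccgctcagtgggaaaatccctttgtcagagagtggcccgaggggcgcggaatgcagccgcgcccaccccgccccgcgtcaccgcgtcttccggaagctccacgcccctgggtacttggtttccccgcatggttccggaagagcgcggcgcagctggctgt
PANX3: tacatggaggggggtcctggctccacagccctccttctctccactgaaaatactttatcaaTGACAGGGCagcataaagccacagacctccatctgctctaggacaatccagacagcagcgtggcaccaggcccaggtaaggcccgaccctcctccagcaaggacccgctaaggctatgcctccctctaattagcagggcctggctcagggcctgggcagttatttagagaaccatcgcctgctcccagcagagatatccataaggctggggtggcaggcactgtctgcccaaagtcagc

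The PANX1 window held 24 CpG dinucleotides and 62.3% G and C, and the PANX3 window 4 CpG dinucleotides and 57.3% G and C, where the median of 35116 such windows was 14 CpG dinucleotides and 58.7%. Both strands were searched for TGACNNNGC and for TGACTCA, the site of AP-1 proteins; these 2 motifs can overlap. TGACNNNGC matched 1 time in the PANX3 window, 189 bases before the start, and 0 times in the PANX1 window. It matched in 13.3% of all windows and TGACTCA in 4.95%, and TGACTCA matched in neither of these 2 windows. A match is a description of letters and not a binding site.

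Of the 3 members, 1 was called higher and 0 lower in limma across all genes at an adjusted p under 0.05, where 0.265% of the 17752 genes were called higher and 0.0338% lower. By the other reading, 1 of 3 members had every treated array above every control array, which held for 1.46% of all genes. Since this comparison chose the family, nothing is read from these shares. PANX2 was called in all 21 alternatives of the processing, where its difference ran from 1.295 to 1.58, and PANX1 and PANX3 were called in 0. The alternatives reuse the arrays that chose the family, so the repeated calls add no separate support.

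The level of PANX2 was also set against that of PANX1 on the same array, which removes any scaling shared by all probes of an array. The log2 value of PANX2 minus that of PANX1 was −0.66, −0.59, −0.94, −0.67 and −0.77 on the control arrays and 1.03, 0.97, 1.05, 0.81 and 0.85 on the treated arrays. The change between the groups was 1.67 ± 0.08 (SE from the variances of the groups alone, n = 5 each). This SE was computed otherwise than the limma SEs of single genes and is not comparable with them. The sizes before and after carry no meaning of their own, since the probes bind with different strength. The change is the difference between the PANX2 and PANX1 values given above, so it adds no separate support.

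Each gene was read by a single probe, so no second probe of the same gene was there to compare. The PANX2 probe is annotated to 1 transcript (NM_052839) of the 2 curated coding transcripts that RefSeq lists for the gene, and which of them it binds was not tested. The genes measured next to each member on its chromosome did not pass the limma test. TRABD, which follows PANX2 with no coding gene between them, was bright, at 7.90 in control and 8.12 in treated cells, and differed by 0.22 ± 0.20 (SE, n = 5 each, limma adjusted p = 0.74). Without control 3, the lowest array at 7.02, TRABD differed by −0.0036. MOV10L1, on the other side, was above background on 5 of 10 arrays and differed by −0.04 ± 0.20. Beside PANX3, TBRG1 differed by 0.15 ± 0.17 and OR8A1, above background on 1 array, by −0.17 ± 0.11. VSTM5 and GPR83, each separated from PANX1 by 1 coding gene, were above background on 1 and 0 arrays. VSTM5 differed by 0.24 ± 0.10 with a limma adjusted p of 0.495 (0.0281 unadjusted), and GPR83 by −0.12 ± 0.11, or −0.05 without control 3.

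Genes around the pannexins were taken as 5 lists, of which 62 of 77 genes were measured; the others were not analysed here. The other genes of large-pore channels made up 2 of the lists. Connexins form the gap junctions of vertebrates and, unpaired, channels to the outside of the cell. Of 15 measured connexins, 0 passed limma in either direction, and 2, both lower, had an unadjusted p under 0.05. Their median difference was −0.01, against 0.01 over all genes. GJC1, taken with GJA5 for the highest probe means, differed by 0.09 ± 0.12 (SE, n = 5 each), and GJA5, a connexin of heart and vessels, differed by 0.21 ± 0.14. GJA1, the connexin gene of heart and many epithelia, chosen after its values were seen, had the largest connexin difference, −0.64 ± 0.16 (limma adjusted p = 0.196), with its probe above background on 9 of 10 arrays.

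Of the 8 measured CALHM and LRRC8 genes, 0 passed in either direction and 0 had an unadjusted p under 0.05. Their differences ran from −0.10 to 0.16, with a median of 0.03. LRRC8A, the obligate subunit of the volume-regulated anion channel, differed by 0.03 ± 0.19 (SE, n = 5 each), or by −0.14 without control 3, and LRRC8B, a partner subunit, by −0.10 ± 0.11. CALHM genes encode channels gated by calcium and voltage, of which CALHM1 lets ATP out of taste cells.

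The receptors of released nucleotides and the enzymes that break them down were tested the same way. Of 15 measured purinergic receptors, 0 passed in limma, and 1, higher, had an unadjusted p under 0.05; the median was 0.07. ADORA2B, a receptor of adenosine, differed by 0.07 ± 0.11 (SE, n = 5 each), and P2RY2, a receptor of ATP and UTP, by 0.02 ± 0.22. Without control 3 these were 0.03 and −0.10. P2RX7, an ion channel opened by ATP and long studied together with PANX1, was chosen after its values were seen and differed by −0.02 ± 0.10. Of 12 extracellular nucleotide enzymes and related genes, 0 passed and 0 had an unadjusted p under 0.05, with a median of −0.02. NT5E, which makes adenosine from AMP, differed by −0.18 ± 0.16, and AK1, an adenylate kinase, by 0.09 ± 0.20. Without control 3, where AK1 was low, these were −0.08 and −0.12.

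The last list held genes that act on PANX1 or with it. Of 12 measured, 0 passed in limma, and 1, lower, had an unadjusted p under 0.05, with a median of 0.05. IL18, a cytokine processed by the inflammasome, differed by 0.21 ± 0.13 (SE, n = 5 each), and LYN, a kinase of the SRC family, by 0.03 ± 0.12; without control 3 these were 0.13 and 0.08. ROCK1, a kinase that drives membrane blebbing, was chosen after its values were seen. It differed by −1.02 ± 0.32 with a limma adjusted p of 0.373. Over the 5 lists together, 4 of 62 measured genes (6.45%) had an unadjusted p under 0.05, against 8.96% of all genes. In limma 0 of the 62 passed, where 0.265% of all genes were called higher and 0.0338% lower. The counts of 0 are near these shares, so nothing about the lists is read from them.

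**Figure D2:**
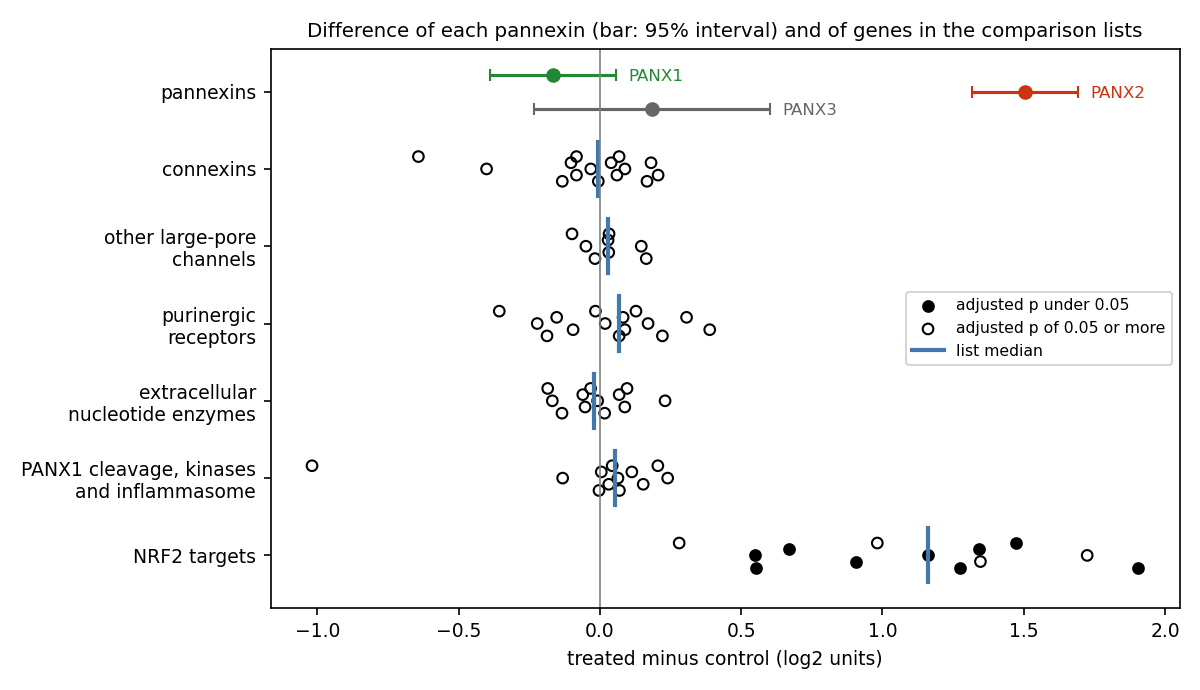
Treated minus control difference in log2 units for the pannexins, with 95% intervals, and for each measured gene of the comparison lists; filled circles are genes with a limma adjusted p under 0.05 and blue lines are list medians. PANX2 lies at 1.51, to the right of every gene in the 5 channel and nucleotide lists, and within the 0.28 to 1.91 spanned by the NRF2 targets.

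PANX2 was next set beside NRF2 targets on single arrays, NRF2 being the factor that turns on antioxidant genes. Of 13 measured targets, 9 were called higher and 0 lower in limma, where 0.265% of all genes were called higher and 0.0338% lower. Their median difference was 1.16, against 0.01 over all genes. That list was drawn up with earlier results of these arrays known, so nothing is read from its count. The mean of these 13 was 7.08, 6.97, 7.07, 7.05 and 7.06 on the control arrays and 7.97, 7.94, 8.04, 7.98 and 8.75 on the treated arrays. Treated 5 was thus 0.61 above the treated mean of the list, while PANX2 on that array was −0.04 from its own treated mean. The list mean does not stand for each target, since their SD over the treated arrays ran from 0.05 for FTL to 1.35 for HMOX1. A small spread over the treated arrays was therefore not particular to PANX2, whose SD there was 0.10. The highest PANX2 value was that of treated 1, 0.17 above the treated mean, where the NRF2 list was −0.17 from its own. Whether this difference between arrays exceeds chance was not tested. The difference of PANX2 was 1.51 with and 1.51 without treated 5.

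The genes whose pattern lay closest to that of PANX2 were found by the root mean square distance over the 10 arrays between log2 profiles, each set to 0 at its own control mean. They were AFP (0.202), PIR (0.252), UGDH (0.312), GSR (0.326) and NQO1 (0.333). AFP encodes alpha-fetoprotein, PIR the iron-binding nuclear protein pirin, UGDH the enzyme that makes UDP-glucuronate, GSR glutathione reductase and NQO1 a quinone reductase. The treated minus control differences were 1.54 ± 0.14 for AFP, 1.37 ± 0.12 for PIR, 1.21 ± 0.16 for UGDH, 1.16 ± 0.13 for GSR and 1.28 ± 0.14 for NQO1 (SE, n = 5 each). GSR and NQO1 are also in the NRF2 list. The measure takes in the size of the difference, so genes of like size rank first, and it says nothing of shared control.

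For PANX1 the distances were smaller, since its profile is nearly flat. The 5 closest genes were ASB7 (0.0586), RCN2 (0.0674), BBS2 (0.0683), PDIA4 (0.0686) and FAM120A (0.0726), with differences of −0.20 to −0.17, or −0.12 to −0.10 without control 3, and 0 of them passed in limma. RCN2 and PDIA4 encode proteins of the endoplasmic reticulum. Like PANX1, all 5 had their highest value of the 10 arrays on control 3.

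Start windows were in the RefSeq table for 4 of the 5 genes closest to PANX2. The PIR window matched TGACNNNGC, on its minus strand, as 13.3% of all windows did on either strand. The windows of AFP, UGDH and NQO1 matched neither motif. Sites more than 250 bases before the start were not searched, so these windows do not show whether a gene has such a site. The PIR match also holds TGACTCA, so its 2 matches are 1 stretch. It is shown because PIR ranked second in likeness to PANX2. The 30 bases around it lie at chrX:15493288-15493317 in GRCh38.p14, on the minus strand. The match, in capitals, starts at base 27, counting the start site as base 1.
PIR: gccgcgaagcGCTGAGTCAcggtgaggcta

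**Figure D3:**
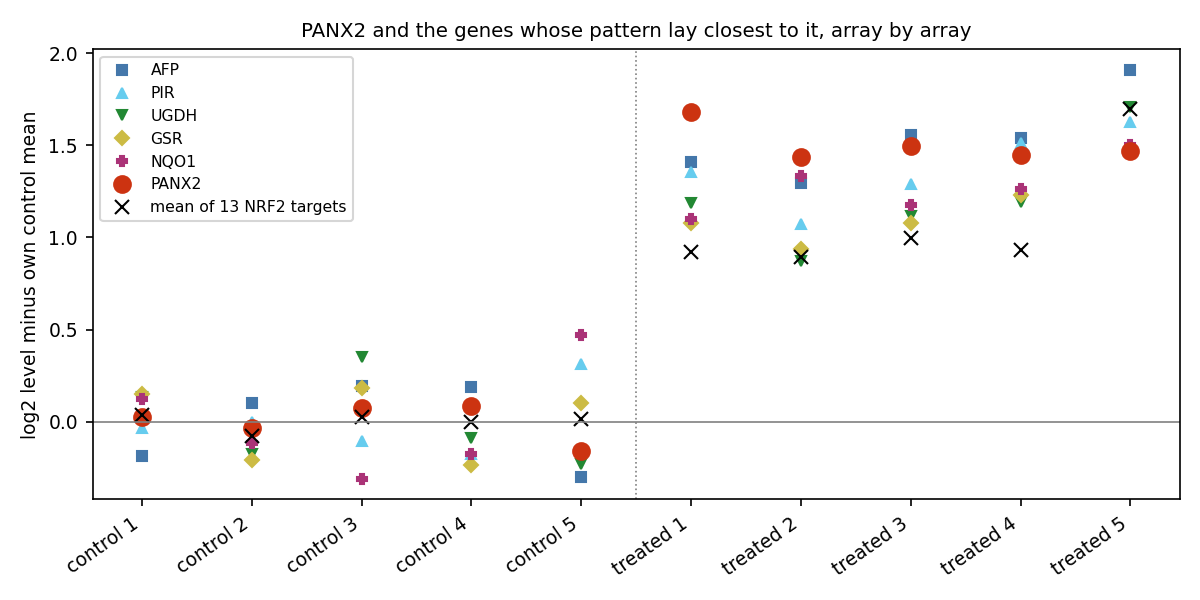
Log2 level minus own control mean on each array for PANX2 (large red circles), the 5 genes closest to it and the mean of 13 NRF2 targets (crosses). On treated 5 the NRF2 mean is the highest of its group, at 8.75 before centring, while PANX2 peaks on treated 1, at 6.41.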

How the data were processed

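Total RNA was labelled with biotin and hybridised to Illumina bead arrays, per the labels' protocols; how the signal was corrected and scaled is not given in the sources used here. The authors' deposited value table was read as log10 of a background-subtracted signal. Base and background subtraction were inferred from the values, which reach 3.65 to 3.79 with medians of 0.178 to 0.295 and share their lowest value over 24.2% to 25.2% of an array's probes; base, correction and earlier scaling stay unknown. Another deposited table has 10 columns matching no sample and was not used. Values were turned to linear units, 3 units were added, and log2 was quantile normalized. Probes with a mean above the 25th percentile of all values (1.59) were kept, 44606 of 48803. Symbols came from the platform annotation (27578 probes with 1 symbol, 13 with several), updated through Entrez identifiers; each gene took its probe with the highest mean, leaving 17752 genes. Groups, from sample titles, were compared in limma 3.58.1 under R 4.3.3 (lmFit and eBayes, two-sided, Benjamini-Hochberg over all genes). The test was tried on simulated data. Array number limits the precision.

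The members, lists and tests were chosen with earlier results of these data known. Named genes were all PANX probes, up to 3 passing members of each list or else its 2 with the highest mean, the nearest measured gene on each side of a member, and the 5 closest profiles; others are marked. Alternatives covered offset, normalization, filter, probe rule, array weights, the variance model, a replicate block and arrays left out. Figures used matplotlib 3.10.9.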

Additional observations from a re-analysis of the deposited data

Results flagged for a closer look

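These values stand apart from the other 4 of their group by Dixon's test: the gap to the next array, as a share of the whole spread, was over 0.71, its 95% limit. Of 64 groups of 5 values, 13 (20.3%) held such a value, where chance flags about 5% of independent sets, and these sets are not independent. Among the pannexins, PANX2 on treated 1 was high at 6.41, PANX3 on control 3 was low at 1.68 and PANX3 on treated 4 was high at 3.05. On treated 5 the NRF2 list mean was high at 8.75 and SLC7A11 at 6.49, LRRC8A was low at 7.87 and P2RY2 at 5.75, and GPR83, above background on 0 arrays, was at 1.86. On control 3, AK1 was low at 5.68 and TRABD at 7.02, while RCN2 at 8.76, BBS2 at 7.26 and PDIA4 at 7.88 were high. The part of these arrays in the results was not tested beyond the values given without them.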

How the results depend on the processing

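Across 21 alternatives PANX2 stayed positive and called, PANX1 stayed negative and PANX3 positive, and neither of these was called. Since the same arrays chose the family, these calls only describe how the differences move with the processing. The PANX2 difference was 1.295 with an offset of 10 units, and PANX3 was at 0.85 on the deposited values without further processing. On the deposited values 26 genes were higher and 2 lower over all genes, and with array weights 71 were higher and 16 lower. With 1 array left out, 32 to 47 genes were higher and 3 to 9 lower, the 3 coming without control 4, treated 1, treated 3 or treated 4. The 62 genes of the 5 channel and nucleotide lists had 0 calls in every alternative tried. With 0.265% of all genes called higher and 0.0338% lower in the main fit, 0 calls among 62 genes is near the share over all genes. With the replicate block 40 genes were higher and 5 lower; the correlation of deviations between same-numbered arrays was −0.09 to 0.25, and 5 of 10 arrays correlated best with their own number, so the numbers are not taken to pair the arrays. Without control 3 the PANX1 difference was −0.09 and that of PANX3 0.01. Among the other named genes, an alternative added after the data were seen left out control 3: the differences of TRABD (−0.0036), AK1 (−0.12), LRRC8A (−0.14) and P2RY2 (−0.10) turned negative, and none of the named genes gained or lost its call. PANX3, above background on 9 of 10 arrays, is limited by its low signal.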
